A study of Mus musculus with 4 samples.

Results

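TRBV5, the V segment of the mouse TCRβ locus also named V beta 1, was described in splenic CD4 T cells of WT and Tet2/3 DKO mice. Its members were the TCRβ clones whose first listed V segment, without the allele, was TRBV5. There were 50645 such clones of 382531 TCRβ clones in all, with 238150 of 1798641 reads. Each clone stands for a separate nucleotide sequence of the variable region, so that clones of 1 rearrangement can differ outside the CDR3. Every TRBV5 clone listed TRBV5 as its sole V segment, with no clone of several V hits in any library.

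The libraries came from 2 WT and 2 Tet2/3 DKO samples, made from RNA of sorted cells with a 5' RACE protocol for TCR transcripts. WT mice carry intact Tet2 and Tet3, whereas Tet2/3 DKO mice lack Tet2 in every tissue through a germline deletion and lose the floxed Tet3 alleles through CD4-Cre. This Cre acts from the double positive stage of the thymus onwards, by which TCRβ rearrangement has taken place. The mice were young and on a C57BL/6 background. Sorted cells were live, TCRβ+ and CD4+, without CD25 and without staining by the aGalCer tetramer, in both genotypes. The tables hold TCR chains only, so that the labelled cell type could not be checked against other marker genes. Per library there were 365421 to 569678 TCRβ reads. Tet2/3 DKO replicate 2 stood apart: it was the most deeply sequenced library, held 222 clones of at least 0.02% of its TCRβ reads against 56 to 135 in the others, and its TRBV5 values were often the lowest or highest of the 4. Where a difference between genotypes leaned on it, the value without it is given beside it or with the limits at the end. The study describes the samples of a genotype as distinct biological replicates, of which there were 2 each.

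A TCRβ chain is built in the thymus by joining a D to a J segment and then a V segment to the DJ join. Bases are trimmed from the segment ends and others are inserted between them, and the join encodes the CDR3 loop, which mostly contacts the peptide. The V segment itself encodes CDR1 and CDR2, the loops that mostly contact the MHC molecule. In the RefSeq annotation of GRCm38.p6, which is the mm10 assembly named in the submitters' notes, Trbv5 (synonym Tcrb-V1) is a V segment of 445 bases at chr6:41062359-41062803. It lies 470398 bases before Trbd1 (chr6:41533201-41533212), and the J segments follow from Trbj1-1 (chr6:41533864-41533911) to Trbj2-7 (chr6:41543810-41543856), with Trbd2 (chr6:41542163-41542176) between both J clusters.

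The TRBV5 region of 284 bases is shown because it carries the loops, the trimmed end and a recurrent internal loss described later. It was read from the V sequence found in the most TRBV5 reads, which 94.1% to 95.0% of the TRBV5 reads of each library carried before the CDR3. Capitals mark CDR1, bases 76 to 90 counted from the first base of framework region 1, and CDR2, bases 142 to 159.
TRBV5 region: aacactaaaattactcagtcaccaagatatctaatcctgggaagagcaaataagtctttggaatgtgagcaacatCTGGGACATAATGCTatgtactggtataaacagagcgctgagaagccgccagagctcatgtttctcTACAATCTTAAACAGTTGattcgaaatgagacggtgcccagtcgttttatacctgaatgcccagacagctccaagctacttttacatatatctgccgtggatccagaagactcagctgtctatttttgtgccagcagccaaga
The last 17 bases of this segment lie inside the CDR3. They are shown with the 4 outermost bases in capitals, since rearrangements mostly kept all 17 or lost exactly these 4.
TRBV5 end: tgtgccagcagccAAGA
The most abundant TRBV5 clone of each library had the following CDR3, where capitals mark the bases that the clone assembler assigned to neither V nor J, that is, the D segment and insertions.
WT replicate 1: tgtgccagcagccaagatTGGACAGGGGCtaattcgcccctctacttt
WT replicate 2: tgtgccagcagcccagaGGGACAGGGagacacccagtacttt
Tet2/3 DKO replicate 1: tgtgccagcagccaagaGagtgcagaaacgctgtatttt
Tet2/3 DKO replicate 2: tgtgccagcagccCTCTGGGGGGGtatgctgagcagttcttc

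TRBV5 was abundant in both genotypes, and its share did not separate them. It held 13.6% and 14.3% of TCRβ reads in WT replicates 1 and 2. The Tet2/3 DKO replicates held 14.7% and 11.1%. The 95% Wilson intervals were 13.5% to 13.8%, 14.2% to 14.4%, 14.6% to 14.8% and 11.0% to 11.2% in the same order and cover counting error only, since reads without molecular identifiers are not independent molecules. Tet2/3 DKO replicate 1 was thus the highest library and Tet2/3 DKO replicate 2 the lowest, with both WT libraries between them. WT had a mean of 14.0% ± 0.483 (SD, n = 2) and Tet2/3 DKO one of 12.9% ± 2.54 (SD, n = 2), a difference of -1.10 percentage points with an exact two-sided permutation p of 1. This test over 6 assignments of the labels cannot go below 0.333. Without Tet2/3 DKO replicate 2 the difference was 0.69 percentage points, and without Tet2/3 DKO replicate 1 it was -2.90. More TRBV5 cells and more TRBV5 RNA per cell cannot be told apart in such bulk libraries.

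The count test did not call TRBV5 either. In edgeR's quasi-likelihood test over all 24 TRBV segments, the log2 fold change of TRBV5 in Tet2/3 DKO over WT was -0.12 (SE 0.12, Benjamini-Hochberg adjusted p = 0.668). Of these segments 0% passed the threshold of 0.05 after adjustment, 3 had an unadjusted p under 0.05, and DESeq2 called 1 that was not TRBV5. The TRBV5 call rested on which Tet2/3 DKO library was used: without replicate 1 the log2 fold change was -0.34 (edgeR adjusted p = 1.9e-04) and 8 of 24 segments were called, while without replicate 2 it was 0.07 (edgeR adjusted p = 0.999) and 0 were called. In both of these fits the lone Tet2/3 DKO library was assumed to vary as WT does.

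Shares of clones, in which each clone counts once, had less spread. TRBV5 took 13.7% and 13.6% of clones in WT, with 13.9% and 11.9% in Tet2/3 DKO. The means were 13.6% ± 0.0656 and 12.9% ± 1.47 (SD, n = 2 each; exact permutation p = 1). Again Tet2/3 DKO replicate 2 was the lowest library and Tet2/3 DKO replicate 1 the highest, and the difference of -0.74 percentage points was 0.30 without replicate 2. The low share of reads in that library was also found among small clones. With every TCRβ clone of at least 0.02% of reads left out, an alternative chosen after seeing the data, TRBV5 held 14.2% and 14.4% of the remaining reads in WT, with 14.6% and 11.7% in Tet2/3 DKO. Among clones of 1 read the shares were 13.5% and 13.6% in WT, with 13.8% and 11.7% in Tet2/3 DKO.

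Among the 24 TRBV segments found, TRBV5 ranked number 2 by share of reads in each of the 4 libraries. TRBV31, which lies beyond the constant regions and joins by inversion, was the one segment above it, with 14.0% to 14.8% of reads. TRBV31 exceeded TRBV5 by 1.09 and 0.43 percentage points in WT and by 0.07 and 2.93 in Tet2/3 DKO, a mean of 1.13 (exact sign permutation p = 0.125, the smallest that 4 libraries allow). This mean leaned on Tet2/3 DKO replicate 2, where the gap was by far the largest. In Tet2/3 DKO replicate 1 the TRBV31 share lay within the Wilson interval of TRBV5, and the ranges of both segments over the libraries overlapped. By share of clones the order of the means of 4 libraries turned, with 13.28% for TRBV5 and 13.25% for TRBV31. The next segments below were TRBV13-3 with 9.32% to 11.9% and TRBV13-1 with 10.1% to 11.0%, both under TRBV5 in all 4 libraries. Over the libraries the range of TRBV13-3 overlapped that of TRBV5, and that of TRBV13-1 ended just below it.

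**Figure D1:**
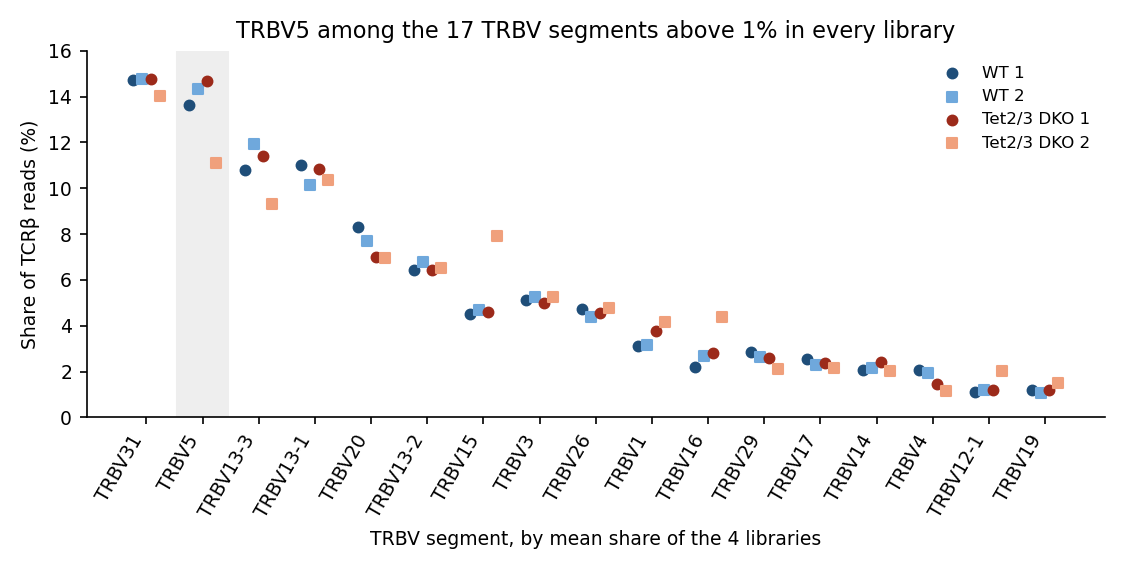
Share of TCRβ reads (percent) of each TRBV segment that held at least 1% in every library, by library; circles and squares are replicates 1 and 2. TRBV5, shaded, lay at 13.6% to 14.7% in 3 libraries and at 11.1% in Tet2/3 DKO replicate 2.

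TRBV5 was joined to all 12 TRBJ segments found, and to TRBJ2-7 and TRBJ2-5 most. TRBJ2-7, the last J before the second constant region, took 21.9% and 20.4% of TRBV5 reads in WT, with 21.1% and 22.6% in Tet2/3 DKO. Means were 21.2% ± 1.10 and 21.8% ± 1.06 (SD, n = 2), and the log2 fold change of the TRBV5-TRBJ2-7 pair was -0.08 (SE 0.21, edgeR adjusted p = 0.968). The genotypes overlapped, with a WT library lowest and a Tet2/3 DKO library highest.

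TRBJ2-5 took 15.3% and 17.4% of TRBV5 reads in WT, with 13.9% and 14.6% in Tet2/3 DKO. Both WT libraries were above both Tet2/3 DKO libraries, but the pair's log2 fold change of -0.32 (SE 0.22) had an edgeR adjusted p of 0.678. The most abundant TRBV5 clone of WT replicate 2 was a TRBJ2-5 join, and with the most abundant TRBV5 clone of each library left out TRBJ2-5 took 15.4%, 16.0%, 14.0% and 15.0%. TRBJ1-1, the third partner, took 10.2% and 9.64% in WT, with 10.5% and 9.35% in Tet2/3 DKO (log2 fold change -0.11, SE 0.22, edgeR adjusted p = 0.968). Here the Tet2/3 DKO libraries enclosed the WT libraries.

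Of all 285 TRBV-TRBJ pairs tested 0% passed the threshold, and 0 of the 12 TRBV5 pairs did. No TRBV5 pair had an unadjusted p under 0.05 in edgeR, and DESeq2 called 0 of the 12. The fitted log2 fold changes of the 12 pairs ran from -0.32 to 0.19 with a median of -0.11, and 9 of them were negative. The median over all 285 pairs was -0.01. The direction turned without Tet2/3 DKO replicate 2: 11 of the 12 were then positive, with a median of 0.08 (0.02 over all 283 pairs). Without Tet2/3 DKO replicate 1, 11 of the 12 were negative, from -0.76 to 0.04 with a median of -0.29 (-0.06 over all 284 pairs). In both of these fits the lone Tet2/3 DKO library was assumed to vary as WT does.

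Single clones moved single J shares. TRBJ2-1 held 11.3% of TRBV5 reads in Tet2/3 DKO replicate 2 against 9.04% to 9.69% in the other libraries, and 8.93% once that library's most abundant clone, a TRBJ2-1 join, was left out. TRBJ1-6 held 3.38% in WT replicate 1 and 2.85% without its most abundant clone.

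Against the other TRBV segments, the J use of TRBV5 differed most at TRBJ1-2 and TRBJ1-1. TRBJ1-2 took 2.44% to 3.37% of TRBV5 reads and 4.53% to 5.43% of the reads of all other TRBV, whereas TRBJ1-1 took 9.35% to 10.5% and 6.62% to 8.46%. For both segments the ranges did not meet. The same held for TRBJ2-4 (9.09% to 9.86% with TRBV5, 11.0% to 11.8% with other TRBV) and TRBJ1-3 (4.02% to 4.52%, 4.80% to 5.30%). TRBJ1-4 and TRBJ1-5 were also higher with TRBV5 in 4 of 4 libraries, and TRBJ1-3, TRBJ2-2 and TRBJ2-4 lower in 4 of 4. Differences in the same direction in all 4 libraries reach p = 0.125 in the exact sign permutation test, the smallest possible. The TRBJ1 cluster together took 29.1% and 27.6% of TRBV5 reads in WT, with 29.8% and 27.5% in Tet2/3 DKO (exact permutation p = 1). It took 25.8% to 28.7% of the reads of the other segments, and TRBV5 was higher in 3 of 4 libraries, by a mean of 1.26 percentage points (SD 1.01; exact sign permutation p = 0.25, adjusted p = 0.25 over the 6 measures compared with other TRBV).

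**Figure D2:**
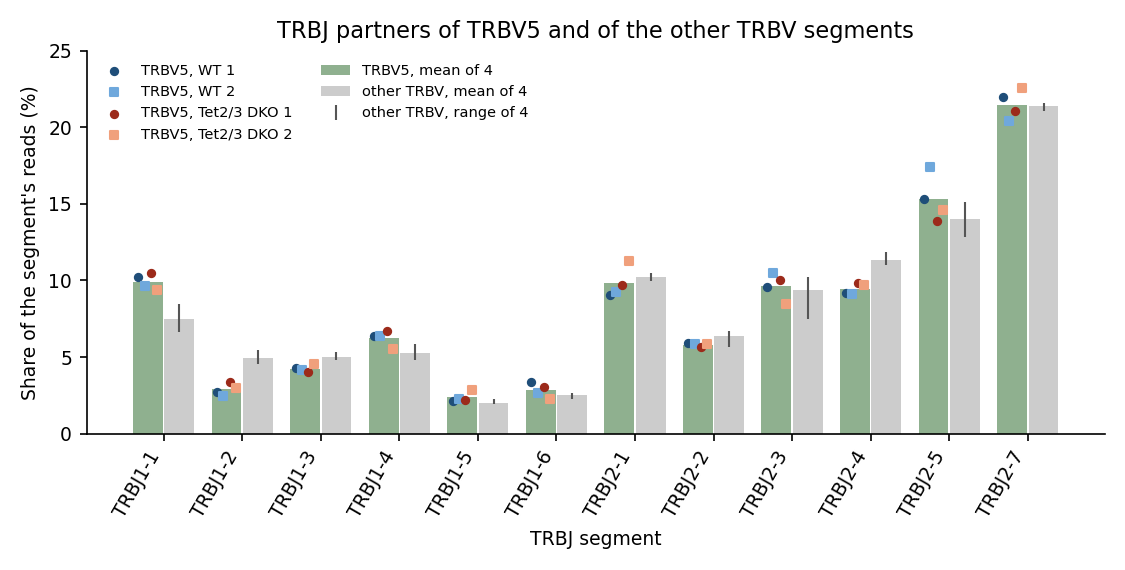
Share of reads (percent) of each TRBJ segment among TRBV5 reads (green bars, mean of 4 libraries, points for each library) and among reads of all other TRBV (grey bars, lines for the range of 4). TRBJ2-7 is the first partner of both, TRBJ1-1 is higher and TRBJ1-2 lower with TRBV5.

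The J profile most like that of TRBV5 was that of TRBV13-3, followed by TRBV16 and TRBV13-1. The measure was the total variation distance, the percentage of reads that would have to change their J to make both profiles equal, as a mean of 4 libraries over the 16 other segments with at least 1% of reads in every library. It was 8.68% for TRBV13-3, 8.74% for TRBV16 and 9.14% for TRBV13-1. TRBV5 profiles of 2 libraries differed by 3.17% to 6.36%. The values of these 3 segments in single libraries overlapped (6.05% to 11.3%, 7.80% to 11.1% and 6.24% to 13.3%), so that their order is not settled.

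The D segment was called by short matches. In TRBV5 joins to TRBJ1, TRBD1 was called in 59.9% and 59.9% of in-frame rearrangements in WT, with 60.6% and 62.7% in Tet2/3 DKO. TRBD2 was called in 5.07% to 5.97% of these joins, although it lies after the TRBJ1 cluster and an ordinary deletional join could not bring them together. In joins to TRBJ2, TRBD2 was called in 46.1% and 45.4% in WT, with 44.5% and 41.8% in Tet2/3 DKO. Both Tet2/3 DKO libraries were lower, with an exact permutation p of 0.333, the smallest possible. TRBD1 was called in 32.6% and 32.4% of TRBJ2 joins in WT, with 33.9% and 36.0% in Tet2/3 DKO, with the same p of the exact permutation test. Without Tet2/3 DKO replicate 2 the difference in TRBD2 calls of TRBJ2 joins went from -2.57 to -1.23 percentage points and that in TRBD1 calls from 2.43 to 1.38, with that in TRBD1 calls of TRBJ1 joins going from 1.77 to 0.71. Constant regions cannot be told apart here: TRBC2 was the first call for over 99.9% of the reads of TRBV5 joins to TRBJ1 in every library.

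TRBV5 chains had longer CDR3s than chains of the other segments, in each library and by a similar margin. The read-weighted mean length of in-frame TRBV5 CDR3s, counted from the conserved cysteine to the phenylalanine, was 14.3 and 14.4 amino acids in WT, with 14.3 and 14.1 in Tet2/3 DKO. All other TRBV together had 13.6, 13.6, 13.6 and 13.5 in the same order. TRBV5 exceeded them by 0.64 to 0.79 amino acids, with a mean of 0.74 (SD 0.0687, higher in 4 of 4 libraries; exact sign permutation p = 0.125, adjusted p = 0.188 over 6 measures). Its mean was the longest of the 17 segments with at least 1% of reads in every library, ahead of TRBV17 with 13.8. Between genotypes WT had a mean of 14.3 ± 0.0292 and Tet2/3 DKO one of 14.2 ± 0.160 (SD, n = 2 each; exact permutation p = 0.667), and Tet2/3 DKO replicate 2 was the lowest. Without it the difference of -0.0983 amino acids was 0.0148.

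Lengths of 14 and 15 amino acids were the most frequent. Length 14 took 30.8% and 31.7% of in-frame TRBV5 reads in WT, with 30.6% and 32.1% in Tet2/3 DKO, close to the 29.8% of other TRBV. Length 15 took 28.6% and 28.9% in WT, with 30.6% and 26.2% in Tet2/3 DKO, against a mean of 17.2% in other TRBV. TRBV5 thus differed at the long side of the peak, and at length 13 it was lower, with 15.6% to 17.2% against a mean of 26.5%. Length 16 took 10.6% to 12.5% against 4.86%, and length 12 took 5.50% to 9.12% against 14.2%, with Tet2/3 DKO replicate 2 giving the lowest value at 16 and the highest at 12.

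The extra length lay in the V part. Counting each in-frame rearrangement once, TRBV5 CDR3s had a mean of 43.2 nucleotides, of which 15.7 came from V, 8.97 lay between V and J and 18.5 came from J. The other TRBV had 40.9 nucleotides, with 13.6, 8.78 and 18.5. TRBV5 exceeded them by 2.15 bases in V (2.05 to 2.21 over the libraries), by 0.20 between V and J (0.14 to 0.22) and by -0.01 in J (-0.08 to 0.06). The first and second of these were positive in 4 of 4 libraries (exact sign permutation p = 0.125 each), and the last in 1 of 4.

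**Figure D3:**
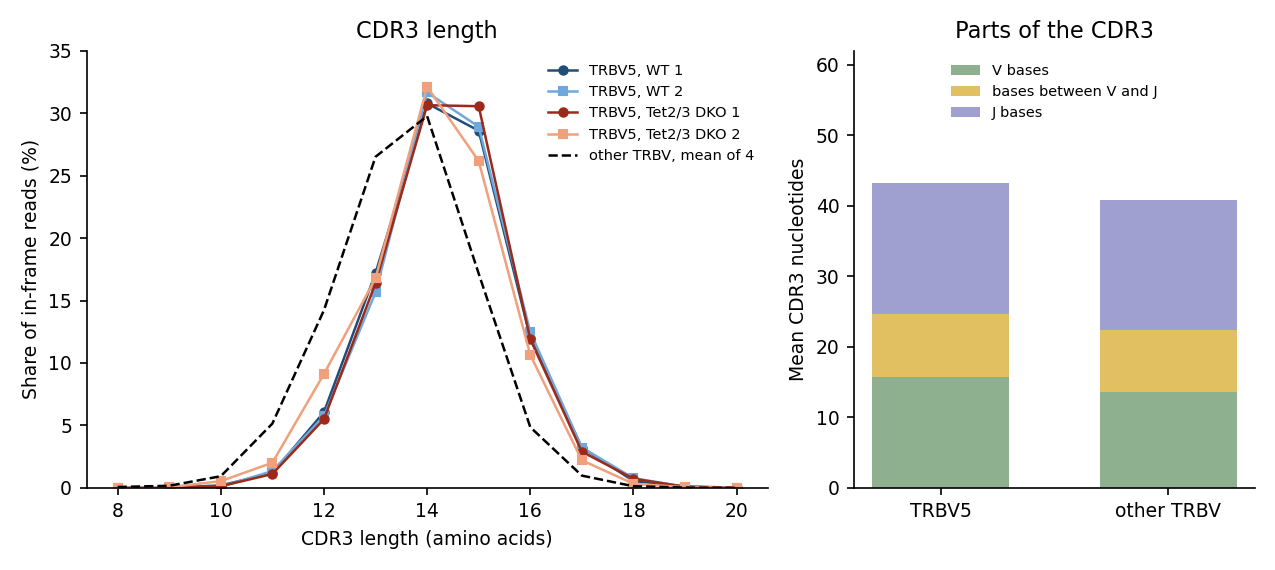
Left, share of in-frame reads (percent) at each CDR3 length (amino acids) for TRBV5 in each library and, dashed, for all other TRBV (mean of 4 libraries). Right, mean CDR3 nucleotides from V, between V and J, and from J, each in-frame rearrangement counted once; V gives 15.7 bases in TRBV5 and 13.6 in other TRBV.

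The TRBV5 end was trimmed little. Of its 17 germline bases in the CDR3, the mean number lost was 1.59 and 1.62 in WT, with 1.58 and 1.64 in Tet2/3 DKO (exact permutation p = 1). A germline end of 17 bases was shared by 9 of the 17 segments compared, and the others had 13 to 16. Among the 17, TRBV5 lost the third fewest bases, after TRBV31 with 0.88 and TRBV12-1 with 1.47, which have ends of 13 and 15 bases. TRBV4, at the other end, lost 4.46 bases of its 17.

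The number of bases lost had 2 peaks. All bases were kept in 46.3% and 45.6% of in-frame TRBV5 rearrangements in WT, with 46.0% and 44.4% in Tet2/3 DKO. Exactly 4 bases, the capitals of the end shown earlier, were lost in 21.1% and 21.5% in WT, with 21.2% and 21.1% in Tet2/3 DKO. Losses of 1, 2 or 3 bases were found in 13.5%, 8.09% and 7.13% as means of 4 libraries, and 7 or more in 0.336%. Each of these shares differed between libraries by less than 2 percentage points. A base inserted by chance that equals the germline base is counted as kept, so that the losses are lower bounds. A base that differs from the germline can also be counted as kept. The most abundant clone of WT replicate 2 has such a base in its V end and counted as untrimmed.

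**Figure D4:**
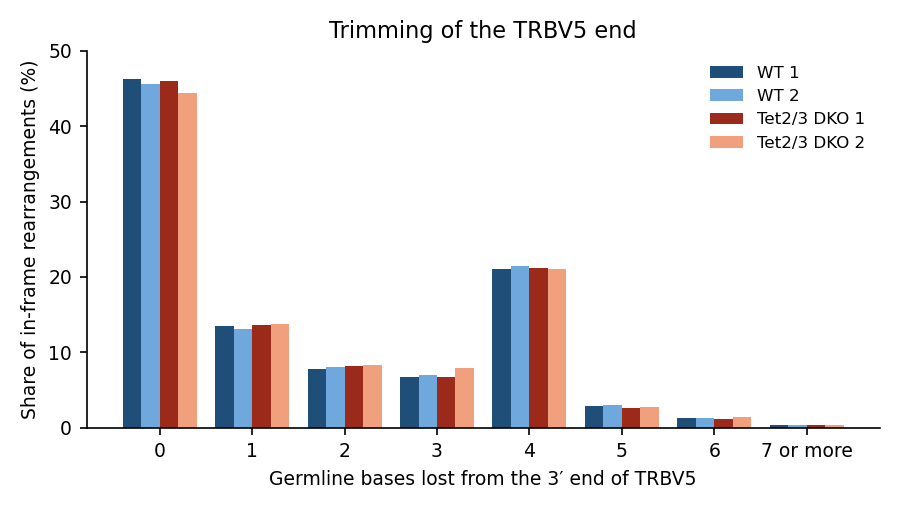
Share of in-frame TRBV5 rearrangements (percent, each counted once) by the number of germline bases lost from the 3′ end of TRBV5, for each library. The peaks are at 0 and at 4 bases in all 4 libraries.

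The fifth residue of the CDR3 lies where the end is trimmed. Glutamine, the germline residue, stood there in 69.8% and 68.9% of in-frame TRBV5 rearrangements in WT, with 69.7% and 69.1% in Tet2/3 DKO. Proline followed with 14.8% and 15.8% in WT, with 14.9% and 14.7% in Tet2/3 DKO. Arginine (4.77% to 5.10%), leucine (3.60% to 3.94%) and histidine (3.27% to 4.02%) each took a few percent. Genotypes overlapped for glutamine and leucine, while arginine and histidine were slightly higher in both Tet2/3 DKO libraries (5.03% and 5.10%, and 3.59% and 4.02%) than in both WT libraries (4.94% and 4.77%, and 3.55% and 3.27%), each with an exact permutation p of 0.333, the smallest possible. Without Tet2/3 DKO replicate 2 the difference in histidine went from 0.39 to 0.17 percentage points, and without WT replicate 2 that in arginine went from 0.21 to 0.13 and that in histidine to 0.25.

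Inserted bases, which terminal transferase adds without a template, were counted in in-frame rearrangements with a D call. TRBV5 had a mean of 2.24 and 2.29 inserted nucleotides in WT, with 2.25 and 2.12 in Tet2/3 DKO (exact permutation p = 0.667). The other TRBV had 2.38, 2.40, 2.33 and 2.18. TRBV5 was lower in 4 of 4 libraries, the difference running from -0.13 to -0.06 nucleotides (mean -0.10, SD 0.0328; exact sign permutation p = 0.125, adjusted p = 0.188), and it was number 12 of the 17 segments, near their median of 2.24. In both sets of chains Tet2/3 DKO replicate 2 had the fewest. Without it the difference between genotypes in TRBV5 went from -0.08 to -0.01 nucleotides.

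Most TRBV5 transcripts were in frame. In-frame clones, with a CDR3 of whole codons and no stop, held 97.8% and 98.0% of TRBV5 reads in WT, with 97.7% and 98.0% in Tet2/3 DKO (exact permutation p = 0.667). The other TRBV had 97.2% to 97.6%, and TRBV5 was higher by 0.46 to 0.64 percentage points in 4 of 4 libraries (exact sign permutation p = 0.125, adjusted p = 0.188). Among the 17 segments it was number 9, so that it stood at their median. Each rearrangement counted once, 96.4% and 96.7% were in frame in WT, with 96.3% and 96.2% in Tet2/3 DKO, both Tet2/3 DKO libraries being lower (exact permutation p = 0.333). The difference of -0.26 percentage points was -0.13 without WT replicate 2 and -0.40 without WT replicate 1. The rest were mostly frameshifts (3.08% to 3.51%), with a stop in an otherwise open CDR3 in 0.201% to 0.309%. An out-of-frame TRBV5 rearrangement had a mean of 3.13 to 3.37 reads and an in-frame one 5.33 to 6.20.

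A small set of TRBV5 clones lacked a fixed stretch of the V region. The same 92 bases, 65 to 156 of the region shown at the start, were missing from 78 clones with 287 reads in WT replicate 1 and from 60 clones with 300 reads in WT replicate 2. In Tet2/3 DKO replicates 1 and 2 they were missing from 79 clones with 339 reads and 50 clones with 217 reads. The stretch is shown in capitals with 30 bases on each side.
TRBV5 missing stretch: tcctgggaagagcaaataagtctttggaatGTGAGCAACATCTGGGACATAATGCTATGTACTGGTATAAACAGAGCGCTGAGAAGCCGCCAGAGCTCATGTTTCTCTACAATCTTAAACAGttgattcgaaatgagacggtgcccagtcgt
It holds the end of framework region 1, CDR1, framework region 2 and most of CDR2, begins with GT and ends with AG. Since 92 is not a multiple of 3, the frame of the rest of the V region shifts. These clones held 0.576% and 0.461% of TRBV5 reads in WT, with 0.564% and 0.344% in Tet2/3 DKO (means 0.518% ± 0.0810 and 0.454% ± 0.156, SD, n = 2 each; exact permutation p = 0.667), with Wilson intervals from 0.513% to 0.646%, 0.412% to 0.516%, 0.507% to 0.627% and 0.301% to 0.392%. The difference of -0.0646 percentage points was 0.0456 without Tet2/3 DKO replicate 2.

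The loss recurred in many rearrangements. It was found with 10 to 12 different J segments per library, its largest clone had 18 reads, and 11.4% to 36.0% of these clones had a partner in the same library with the same CDR3 and J and no base missing. Of all 282 TRBV5 clones with an internal loss of at least 20 bases, 267 had these 92 bases missing, and the next most frequent loss, of 48 bases, was in 4. Their CDR3 was in frame in 74.4% and 69.5% of clones in WT, with 69.6% and 58.0% in Tet2/3 DKO, against 96.7% to 97.0% of the other TRBV5 clones, lower in 4 of 4 libraries (exact sign permutation p = 0.125). The in-frame shares given earlier look at the CDR3 alone. With V losses off the frame counted as out of frame, 97.3% and 97.7% of TRBV5 reads were in frame in WT, with 97.3% and 97.8% in Tet2/3 DKO. Such losses were not particular to TRBV5: losses of at least 20 bases took 0.350% to 0.602% of TRBV5 reads and 0.519% to 0.771% of the reads of other TRBV, with TRBV26 first at 3.07% to 5.84% and TRBV5 number 5 of the 17 segments. How the stretch was lost was not tested.

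TRBV5 held few large clones in 3 libraries and more in the fourth. Clones of at least 0.02% of TCRβ reads, which is 74 to 114 reads depending on the library, numbered 14 and 11 in WT, with 10 and 23 in Tet2/3 DKO. They held 3.87% and 3.55% of TRBV5 reads in WT, with 2.89% and 12.3% in Tet2/3 DKO (means 3.71% ± 0.224 and 7.58% ± 6.63, SD, n = 2 each; exact permutation p = 1). Tet2/3 DKO replicate 2 was far above the other 3 libraries and replicate 1 of the same genotype below both WT libraries. Without Tet2/3 DKO replicate 2 the difference between genotypes of 3.87 percentage points was -0.82, and without replicate 1 it was 8.55. Large clones of the other TRBV held 7.91% and 4.27% of their reads in WT, with 2.60% and 17.3% in Tet2/3 DKO. TRBV5 was lower in 3 of 4 libraries (mean difference -2.39 percentage points, SD 2.58; exact sign permutation p = 0.25, adjusted p = 0.25). Without Tet2/3 DKO replicate 2 this mean difference was -1.49 percentage points. Of all large TCRβ clones, TRBV5 gave 10.4%, 10.9%, 17.9% and 10.4% in the order of the libraries.

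The most abundant TRBV5 clones, whose CDR3s are printed at the start, differed in how far they were shared. That of WT replicate 1 had 271 reads, 0.0742% of TCRβ reads (Wilson interval 0.0658% to 0.0835%), with a CDR3 of 16 amino acids joined to TRBJ1-6. The clone of WT replicate 2 had 1074 reads, 0.237% (0.223% to 0.251%), 14 amino acids and TRBJ2-5, and was the largest TCRβ clone of its library. Neither rearrangement had a read in another library, where 3 reads would have been 5.27e-04% to 8.21e-04% of TCRβ reads. In Tet2/3 DKO replicate 1 the first clone had 393 reads, 0.0960% (0.0870% to 0.106%), 13 amino acids and TRBJ2-3. Its V end was intact and a single base lay between V and J. The same rearrangement had 6 reads in Tet2/3 DKO replicate 2, and its amino acid sequence was found in all 4 libraries, with 13 and 10 reads in WT. In Tet2/3 DKO replicate 2 the first clone had 1613 reads, 0.283% (0.270% to 0.297%), 14 amino acids and TRBJ2-1, had lost the 4 end bases, and had no read elsewhere. It was number 8 among the TCRβ clones of that library.

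The effective number of TRBV5 clonotypes, the exponential of the Shannon index after drawing 48645 in-frame reads from each library, put the libraries in the reverse order of the share of large clones. A clonotype here is a combination of V, J and CDR3 amino acids. This number came to 5296 and 5954 in WT and to 6295 and 3871 in Tet2/3 DKO. The means were 5625 ± 465 and 5083 ± 1714 (SD, n = 2 each; exact permutation p = 1). Tet2/3 DKO replicate 1 was the most diverse and Tet2/3 DKO replicate 2 the least, and the log2 ratio of Tet2/3 DKO to WT went from -0.15 to 0.16 without the latter.

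A larger share of TRBV5 clonotypes than of other clonotypes was found in all 4 libraries. Of 28866 TRBV5 clonotypes, 24168 were found in 1 library, 3060 in 2, 1084 in 3 and 554 in all 4. The last group was 1.92% of TRBV5 clonotypes, against 1.00% (2133 of 212761) for the other TRBV. It made up 6.88% and 5.80% of the TRBV5 clonotypes of the WT libraries and 5.84% and 6.40% of those of the Tet2/3 DKO libraries, which overlapped (exact permutation p = 1). For the other TRBV these shares were 3.98%, 3.28%, 3.39% and 3.20%. TRBV5 was higher by 2.77 percentage points (SD 0.352, 4 of 4 libraries; exact sign permutation p = 0.125, adjusted p = 0.188), and it was first among 17 segments, before TRBV31 with 5.71%. These 4 values share 1 set of clonotypes, and a segment with more reads is sampled more deeply.

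Clonotypes in all 4 libraries held 14.3% and 13.6% of TRBV5 reads in WT, with 14.4% and 15.8% in Tet2/3 DKO. Both Tet2/3 DKO libraries were above both WT libraries, with an exact permutation p of 0.333, the smallest possible, and the difference of 1.14 percentage points was 0.42 without Tet2/3 DKO replicate 2. Pairs of libraries shared 1478 to 1710 TRBV5 clonotypes, which is 17.5% to 19.3% of the list of the first library and 16.2% to 19.5% of that of the second. For the other TRBV these shares were 12.6% to 13.8% and 11.1% to 13.1%. Divided by the product of both numbers of clonotypes, the shared clonotypes came to 2.03e-05 for the WT pair, 2.05e-05 for the Tet2/3 DKO pair and 1.89e-05 to 2.12e-05 for the pairs of different genotypes. Both pairs of 1 genotype thus lay within the range of the mixed pairs. By nucleotide sequence sharing was rarer: of 37329 in-frame TRBV5 rearrangements 163 were found in all 4 libraries.

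TRBV5 clonotypes of several libraries had fewer inserted and lost bases than those of 1 library. The mean number of inserted nucleotides fell with the number of libraries, from 2.76 in clonotypes of 1 library to 1.61, 1.18 and 1.06 in those of 2, 3 and 4. Mean bases lost from the V end were 1.83, 1.46, 1.37 and 1.04, and mean CDR3 length was 14.6, 14.2, 14.1 and 13.9 amino acids. Glutamine stood at the fifth position in 63.8%, 73.2%, 75.9% and 84.7%. Clonotypes in all 4 libraries were 11 to 16 amino acids long and were encoded by a mean of 4.89 different nucleotide sequences, against 1.04 for those of 1 library. These are descriptions over clonotypes, which are not replicates, and more abundant clonotypes are more often found: the median sum of reads was 4, 10, 21 and 42.

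**Figure D5:**
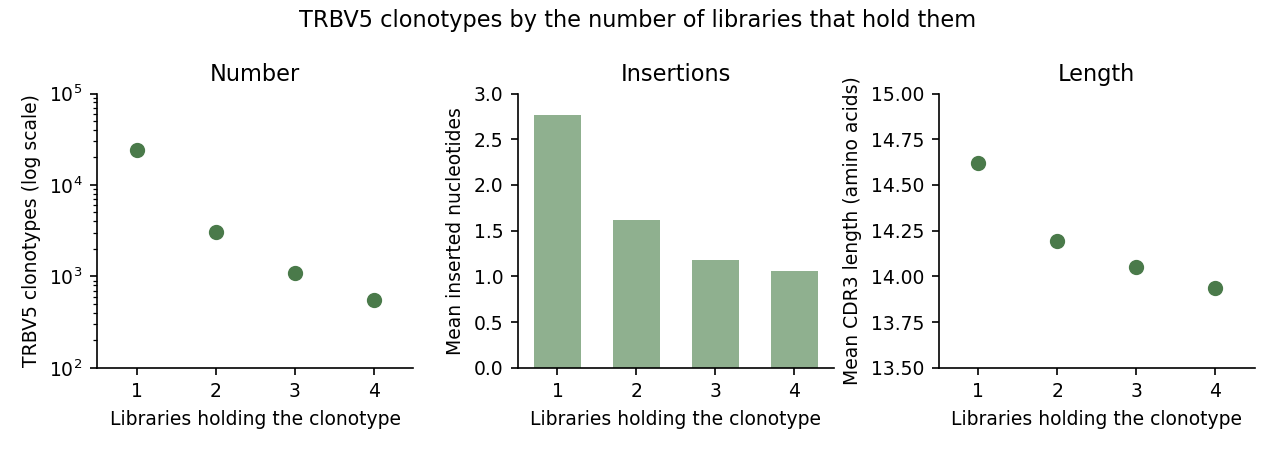
TRBV5 clonotypes (V, J and CDR3 amino acids) by the number of libraries that hold them: their number on a log axis, mean inserted nucleotides in those with a D call, and mean CDR3 length in amino acids on an axis that starts at 13.5. The number falls from 24168 to 554, insertions from 2.76 to 1.06 and length from 14.6 to 13.9.

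The 5 TRBV5 clonotypes with the largest lowest share among those in all 4 libraries are each given by their nucleotide sequence with the most reads. Capitals are used as for the most abundant clones.
Public clonotype A, TRBJ2-7: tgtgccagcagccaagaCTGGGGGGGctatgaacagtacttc
Public clonotype B, TRBJ2-4: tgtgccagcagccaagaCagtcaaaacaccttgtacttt
Public clonotype C, TRBJ2-3: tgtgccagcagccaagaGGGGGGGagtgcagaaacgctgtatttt
Public clonotype D, TRBJ2-7: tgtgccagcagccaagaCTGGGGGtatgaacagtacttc
Public clonotype E, TRBJ2-1: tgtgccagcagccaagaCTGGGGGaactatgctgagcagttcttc
Each of these sequences kept the whole 17-base V end, was found in all 4 libraries, and had no inserted base where a D was called. Clonotype B had no D call and 1 base between V and J. In clonotypes A and D the printed sequence carried fewer reads than the other sequences of the clonotype together.

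Clonotype A had 97 and 75 reads in WT, with 108 and 86 in Tet2/3 DKO, 0.0265%, 0.0165%, 0.0264% and 0.0151% of TCRβ reads, and was encoded by 12 nucleotide sequences. Clonotype B had 45 and 70 reads in WT, with 156 and 68 in Tet2/3 DKO, with Tet2/3 DKO replicate 1 highest. Clonotype C, with 14 nucleotide sequences the most varied, had 42 and 228 reads in WT, with 42 and 76 in Tet2/3 DKO, so that WT replicate 2 stood above the others. Clonotype D had 61, 54, 51 and 57 reads, and clonotype E 34, 43, 39 and 53 in the same order of libraries. The share of clonotype E was the most even, at 0.00930% to 0.00953% of TCRβ reads. Clonotypes A, D and E have aspartate, tryptophan and glycine right after the fifth residue, and TRBD2 was called in A, C, D and E. The 3 residues were chosen after their values were seen and were not tested: they stood there, after a glutamine, in 53 of the 554 clonotypes of all 4 libraries (9.57%) and in 287 of the 24168 of 1 library (1.19%).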

How the data were processed

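TCR SMART-seq libraries of splenic CD4 T cells from 2 WT and 2 Tet2/3 DKO samples were used. Per the labels, reads were demultiplexed with bcl2fastq 2.20.0, and the authors trimmed them by fastp 0.21.0 before MiXCR assembled clones, each a distinct sequence of framework regions 1 to 4. For each library the authors deposited a table with a count of reads per clone and its fraction of TCRβ reads. The deposited fraction served as a check only and equalled the share of the counts. TCRα tables were not used.

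V, D and J are the first hits without alleles. Rearrangements merge clones by V, J and CDR3 nucleotides, and clonotypes merge in-frame clones by V, J and CDR3 amino acids. Clones without a CDR3 (0.135% to 0.194% of TRBV5 reads) stayed in read and clone shares. Junction points are those of the deposited clones. Counts per TRBV segment and per TRBV-TRBJ pair with at least 10 reads were tested by edgeR 4.0.16 (quasi-likelihood) with total reads as library sizes and Benjamini-Hochberg adjustment over the whole table, and its SE is the log2 fold change divided by the root of F. DESeq2 1.42.0 was the alternative. The count test was tested on simulated counts of 285 TRBV-TRBJ pairs, of which 40 were changed 4-fold. It called 100% of these and 0.612% of the unchanged pairs. Changes as small as those fitted for TRBV5 were not simulated. Values per library were compared by exact two-sided permutation tests, and TRBV5 with other TRBV by exact two-sided sign permutation over 4 libraries, adjusted over 6 measures. The effective number is a mean of 20 draws. Wilson intervals are at 95%. Alternatives covered normalization, filter, test, weight and minimum reads of clones, merging, thresholds, a replicate block and each library left out.

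The segment, the measures and the rule for named items were chosen with earlier results of these data known. Named were TRBV5, its 3 main J partners and any J pair past the threshold, its most abundant clone in each library, 5 clonotypes of all 4 libraries, the 5 most frequent CDR3 lengths, the 3 segments with the most similar J profile and its neighbours in abundance. Other J partners, D calls, residues and segments that rank next to TRBV5, and TRBV26, were named after their values were seen. No protein sequence is printed. Scripts ran with Python 3.11.15, numpy 2.4.6, pandas 2.3.3, scipy 1.17.1, matplotlib 3.10.9 and R 4.3.3.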

Additional observations from a re-analysis of the deposited data

How the results depend on the processing

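No comparison of TRBV5 between genotypes passed its threshold with all 4 libraries, and 2 libraries per genotype cannot give a permutation p under 0.333. Leaving out Tet2/3 DKO replicate 2 turned the direction for the read count, the shares of reads and clones, CDR3 length, large clones, the effective number, the missing stretch and the TRBJ1-1 and TRBJ2-7 pairs. The TRBJ1 share and the in-frame share of reads turned without WT replicate 2 (-0.43 and 0.11) and without Tet2/3 DKO replicate 1, the trimmed V end without WT replicate 1 (-0.0132) and Tet2/3 DKO replicate 2, and the share of a library's clonotypes held by all 4 without WT replicate 1 (0.32) and Tet2/3 DKO replicate 1 (0.06). With each library left out in turn, the log2 fold change of the TRBV5 read count ran from -0.335 (without Tet2/3 DKO replicate 1) to 0.0699 (without replicate 2). Without Tet2/3 DKO replicate 1 the median log2 fold change of the 12 TRBV5-TRBJ pairs was -0.29, against -0.06 over all 284 pairs. The difference Tet2/3 DKO minus WT ran from -2.90 to 0.69 percentage points for the share of reads, from -1.78 to 0.30 for the share of clones, from -0.82 to 1.49 for the TRBJ1 share, from -0.19 to 0.14 for the in-frame share and from -0.82 to 8.55 for large clones. It ran from -0.211 to 0.0148 amino acids for CDR3 length and from -0.0213 to 0.0316 bases for the trimmed V end. The log2 ratio of the effective number of clonotypes ran from -0.54 to 0.16. The log2 fold change of the TRBJ1-1 pair ran from -0.420 to 0.148, that of the TRBJ2-7 pair from -0.242 to 0.0635, and that of the TRBJ2-5 pair from -0.502 to -0.167. Inserted nucleotides kept their sign (-0.14 to -0.01). In analyses added after seeing the data, the difference ran from -0.175 to 0.0456 percentage points for the missing stretch and from -0.76 to 0.32 for clonotypes held by all 4, whereas the others kept their sign: from 0.71 to 2.82 for TRBD1 in TRBJ1 joins, 1.38 to 3.47 for TRBD1 and -3.91 to -1.23 for TRBD2 in TRBJ2 joins, 0.13 to 0.30 for arginine, 0.17 to 0.61 for histidine, 0.42 to 1.86 for reads of clonotypes in all 4 and -0.40 to -0.13 for the in-frame share of rearrangements. Weighted by reads, the difference in the trimmed V end turned to -0.0226 bases. Clonotypes of all 4 libraries numbered 163 when merged by nucleotides in place of 554. TRBV5 kept its direction against the other TRBV in all 6 measures under the other weight of clones and with any library left out, but that weight moved 3 of the differences by over 1.5 times: large clones from -2.39 percentage points of reads to -0.0205 of clones, clonotypes in all 4 libraries from 2.77 percentage points of clonotypes to 6.49 of reads, and inserted nucleotides from -0.10 to -0.18 when weighted by reads. The causes were not tested.

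The labels give replicate numbers only, so whether same-numbered libraries were paired is not known. Deviations of same-numbered libraries from their genotype means correlated by 0.18 over 24 TRBV segments and by -0.06 over 285 pairs. With 2 libraries per genotype these values cannot decide it. With the replicate block the log2 fold change of TRBV5 was -0.13 (edgeR adjusted p = 0.579), 0 TRBV5 pairs were called, and 2 of 285 pairs in all. Other differences had no fit with a block. Depth limits rare features most: 3 reads are 5.27e-04% to 8.21e-04% of a library.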
